A study of Mus musculus with 4 samples.

Results

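The AP-1 family is described here by the accessible chromatin around 9 of its genes, Fos, Fosb, Fosl1, Fosl2, Jun, Junb, Jund, Batf and Batf3. For each gene, all peaks lying in the gene body or within 50 kb on either side were taken from 4 ATAC-seq peak lists and joined across the lists where they shared at least 1 bp. This gave 137 regions, of 77914 in the whole genome. ATAC-seq maps open chromatin by letting a transposase cut and tag exposed DNA, and a peak is a place where such cuts pile up above the local background. All cells were MPP3 cells, a myeloid-biased multipotent progenitor of the blood system, sorted from the bone marrow of WT-iMOS mice 3 months old. The 4 libraries are T2 replicates 1 and 2 and T1 replicates 1 and 2. The labels give T2 and T1 as the genotypes WTiMOS_T2 and WTiMOS_T1 and spell out neither these names nor iMOS. The study asks what the zinc-finger factor Bcl11a does inside MPP3 cells. Nothing in the labels ties a replicate to an animal, so the spread between replicates may be technical only.

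AP-1 is a pair of basic leucine zipper proteins that binds DNA as a dimer. FOS proteins (Fos, Fosb, Fosl1, Fosl2) cannot pair with themselves and need a JUN partner, whereas JUN proteins (Jun, Junb, Jund) can also pair with one another. Fos, Fosb, Jun and Junb are immediate early genes, switched on within minutes by growth factors, cytokines and stress. BATF proteins (Batf, Batf3) pair with JUN proteins, lack the activation domain of FOS, and act at composite sites with IRF4 and IRF8. Batf3 is required for conventional type 1 dendritic cells. In myeloid progenitors, AP-1 factors take part in monocyte and macrophage differentiation.

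The DNA at the start of the genes is shown for the 5 members whose start regions are described most closely below. The windows run from 250 bases before to 50 bases after the RefSeq start on GRCm38.p6 (the same assembly as mm10), and RefSeq windows were matched for 8 of the 9 members, all but Fosl1. They are chr12:85473640-85473939 (plus strand), chr7:19309996-19310295 (minus strand), chr4:95052173-95052472 (minus strand), chr8:84978699-84978998 (minus strand) and chr1:191098164-191098463 (plus strand). Each is written 5′ to 3′ on the gene's strand, and capitals mark every match, on either strand, to the motifs named in the next paragraph. The accessible regions described at Fos, Fosb, Jun and Batf3 span the whole window, and that at Junb spans all but its most upstream bases.
Fos: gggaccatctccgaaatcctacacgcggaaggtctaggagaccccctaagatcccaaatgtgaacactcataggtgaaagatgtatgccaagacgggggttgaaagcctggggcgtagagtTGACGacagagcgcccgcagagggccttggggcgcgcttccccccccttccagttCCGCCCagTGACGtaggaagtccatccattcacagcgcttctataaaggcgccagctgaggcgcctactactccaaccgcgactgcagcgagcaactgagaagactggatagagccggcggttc
Fosb: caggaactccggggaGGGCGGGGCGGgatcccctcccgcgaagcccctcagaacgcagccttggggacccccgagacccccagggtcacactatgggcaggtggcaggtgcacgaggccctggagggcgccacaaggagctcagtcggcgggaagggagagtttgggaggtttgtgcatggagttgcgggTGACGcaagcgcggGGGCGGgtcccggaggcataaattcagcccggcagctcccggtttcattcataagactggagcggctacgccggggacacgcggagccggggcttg
Jun: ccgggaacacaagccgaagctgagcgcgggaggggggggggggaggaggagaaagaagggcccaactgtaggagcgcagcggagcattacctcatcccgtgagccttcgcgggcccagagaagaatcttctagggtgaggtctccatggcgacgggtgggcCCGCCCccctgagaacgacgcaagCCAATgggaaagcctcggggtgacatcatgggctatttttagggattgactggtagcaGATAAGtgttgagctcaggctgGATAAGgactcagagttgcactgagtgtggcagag
Junb: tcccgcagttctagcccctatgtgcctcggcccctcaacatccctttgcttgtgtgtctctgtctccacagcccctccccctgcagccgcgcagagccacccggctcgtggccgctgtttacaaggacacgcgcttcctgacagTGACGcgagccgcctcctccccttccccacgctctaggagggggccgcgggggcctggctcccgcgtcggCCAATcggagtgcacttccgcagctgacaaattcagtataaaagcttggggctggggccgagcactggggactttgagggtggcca
Batf3: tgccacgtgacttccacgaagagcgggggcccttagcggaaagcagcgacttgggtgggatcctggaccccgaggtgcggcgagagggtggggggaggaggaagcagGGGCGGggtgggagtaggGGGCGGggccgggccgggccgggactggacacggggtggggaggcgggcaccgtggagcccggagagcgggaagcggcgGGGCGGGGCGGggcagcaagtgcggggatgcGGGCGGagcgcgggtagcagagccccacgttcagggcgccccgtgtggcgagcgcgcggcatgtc

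The motifs searched on both strands were the AP-1 site TGAGTCA, the CRE and the CArG box by their names, the GC box GGGCGG, the box called CCAAT, the site of GATA factors (GATAAG), the site of RUNX factors (TGTGGT) and that of ETS factors (CCGGAA). The short CRE element TGACG was added after the sequences had been read, and every full CRE match would also hold it. The AP-1 site, as the exact letters TGAGTCA, was in 0 of the 8 member windows and in 4.66% of 21237 windows of all genes. The full CRE and the CArG box were also in 0 member windows, against 2.24% and 1.53% of all windows. Only full matches inside the windows were counted, so variant forms and sites further upstream would be missed. The Jun window, for example, holds tgacatca, a near match to the full CRE that was not counted. The counts of 0 therefore do not show that these genes lack such sites. TGACG was in 4 of the 8 member windows, those of Fos, Fosb, Junb and Batf, against 23.6% of all windows. In Fos it occurred at −129 to −125 and at −66 to −62, counted from the start as 0. A single copy lay at −60 to −56 in Fosb, at −106 to −102 in Junb and at −98 to −94 in Batf. The GC box was in 6 of 8 member windows and in 46.2% of all windows. Batf3 held 5 GC boxes, of which the pair between −46 and −36 shares 1 base, and its window was 75.7% G or C with 34 CpG, where the median of all windows was 56.3% and 13 CpG. Jun was the member with GATAAG, just before its start at −7 to −2 and after it at 15 to 20, and 6.93% of all windows hold this motif. Jun and Junb held CCAAT, which 38.2% of all windows hold. Batf held RUNX and ETS matches, found in 15% and 18.7% of all windows. A match describes letters in a window and does not show binding.

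Every AP-1 window held more regions than the median gene. There were 8 (Jun) to 23 (Fosb) regions per gene, where the median over 21883 protein-coding genes was 7 and the quartiles were 3 and 12. Of the 137 regions, 121 and 117 had a peak in T2 replicates 1 and 2, against 117 and 106 in T1 replicates 1 and 2. T2 replicate 2 and T1 replicate 1 had equal numbers, so the groups touched. The means were 119 ± 2.83 regions in T2 and 111.5 ± 7.78 in T1 (SD, n = 2 each), a difference of 7.5 with an exact two-sided permutation p of 0.667, where 2 against 2 libraries allow no p below 0.33. The difference was 14 without T1 replicate 1, 2.0 without T1 replicate 2 and −1.0 with all lists shortened to equal length. As a share of the AP-1 regions this was 88.3% and 85.4% in T2 and 85.4% and 77.4% in T1, where over all 77914 regions it was 84.9% and 79.2% in T2 and 74.4% and 68.3% in T1.

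The deposited lists differed in length, with 66776 and 62718 peaks in the T2 replicates and 58469 and 54057 in the T1 replicates, and they carry no read counts, so depth is unknown. In bulk libraries, fewer cells with an open site and less opening per cell cannot be told apart. Peak strength is the authors' −log10 q, the significance of the peak's summit over local background in its own library. A region took the highest value among its joined peaks, so a wide region with several peaks could gain from its width. To set libraries side by side, the 44274 regions with a peak in all 4 lists were ranked within each library by −log10 q and the rank was given as a percentile, with 100 for the strongest. A shared region is called higher in T2 where both T2 percentiles lie above both T1 percentiles, and higher in T1 in the opposite case. Differences are T2 minus T1 in percentile points. No test was run on these orders, which are a description of the 4 libraries.

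**Figure D1:**
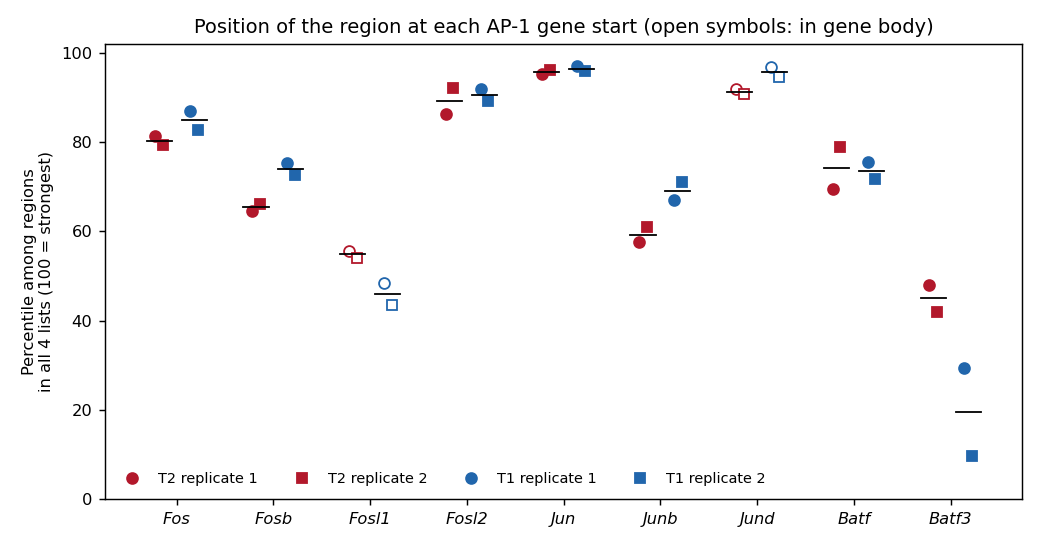
Percentile by −log10 q, among the 44274 regions present in all 4 lists, of the region at the start of each AP-1 gene, or in the gene body for Fosl1 and Jund (open symbols), with T2 libraries in red to the left of T1 libraries in blue and a bar for each mean of 2 libraries. Both T1 points lie above both T2 points for Fos, Fosb and Junb, and both T2 points lie above both T1 points for Batf3, where the difference is 25.45 points.

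Fos, the prototype of the family, had its start region at a higher position in T1. The region at chr12:85473474-85474635 stood at percentiles 81.3 and 79.4 in the T2 replicates, against 87.0 and 82.8 in the T1 replicates, with a −log10 q of 95.9 and 74.3 in T2 and 112 and 73.1 in T1. The groups did not overlap in percentile, and the difference was −4.56 points, or −2.34 without T1 replicate 1. By position within each whole list the difference was −1.51 and the groups overlapped, at 87.6 and 85.4 in T2 and 90.1 and 85.9 in T1. The fold of this region over local background was 6.16 and 6.38 in T2 and 6.49 and 6.03 in T1, and ranked by fold the groups overlapped, with a difference of −1.11 points. The window of Fos is the cleanest of the family, because Fos was the nearest protein-coding gene for all 16 regions in it. Of its 11 shared regions, 1 was higher in T2, 6 were higher in T1 and 4 overlapped, where 26.3% of all 44274 shared regions were higher in T2 and 26.2% were higher in T1.

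The strongest Fos region was not the start but a site 18.5 kb upstream, at chr12:85454913-85455900. It stood at 97.2 and 98.2 in T2 and at 98.4 and 98.2 in T1, so it was among the strongest sites of every library. Both T1 values were above both T2 values, but the difference was −0.59 points. Among the sites further upstream, one 29.0 kb before the start stood at 41.8 and 30.1 in T2 and at 52.4 and 56.9 in T1, a difference of −18.71 points. Those 37.4 and 26.7 kb before the start were also higher in T1, by differences of −13.50 and −12.06 points. A single Fos region went the other way. It lay 23.7 kb downstream of the start, at chr12:85496866-85498294, and stood at 48.8 and 46.4 in T2 against 22.4 and 25.1 in T1, with −log10 q of 38.6 and 30.5 in T2 and 15.7 and 13.7 in T1. This was the largest difference of the Fos window, at 23.87 points.

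Fosb, which codes for FOSB and its truncated splice form, showed the same order at its start and in more of its window. Its start region, at chr7:19309990-19310511, stood at 64.5 and 66.2 in T2 and at 75.4 and 72.6 in T1, a difference of −8.64 points with no overlap. Ranked by fold, both T1 libraries also stood above both T2 libraries, by −6.00 points. By position within each whole list the difference was −3.21 points. All 4 summits lay upstream of the start, at −296 and −270 bases in T2 and at −295 and −269 in T1. Of 15 shared regions in the window, 9 were higher in T1 and 0 in T2, against 26.2% and 26.3% of all, and 6 overlapped. By fold, 8 were higher in T1 and 1 in T2, against 25.8% and 22.4% of all. The gene lies among close neighbours, and Fosb was nearest to 9 of the 23 regions. Of the 6 shared regions nearest to Fosb, 4 were higher in T1 and 0 in T2. The largest difference in the window, −20.52 points, was at chr7:19332727-19333294, near Ercc1, with 10.7 and 4.82 in T2 and 28.7 and 27.8 in T1. The strongest shared region, chr7:19265788-19266742, is nearest to Vasp and stood at 83.5 and 88.8 in T2 and at 91.8 and 93.0 in T1.

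The other 2 FOS genes did not follow Fos and Fosb. Fosl2, which codes for FRA-2, had a strong start region, chr5:32134965-32136430, at 86.3 and 92.2 in T2 and at 91.9 and 89.3 in T1. The groups overlapped there. A weaker site 3.09 kb upstream of the Fosl2 start, chr5:32132963-32133802, stood at 43.1 and 40.6 in T2 and at 19.6 and 15.6 in T1. It was higher in T2 by 24.27 points, with fold values of 3.99 and 3.99 in T2 against 2.78 and 2.75 in T1. Fosl1, which codes for FRA-1, had 1 region in its gene body, chr19:5447495-5448950, at 55.7 and 53.9 in T2 and at 48.4 and 43.4 in T1. It was higher in T2 by 8.88 points. No start window was matched for Fosl1, and this region also spans the lower edge of the gene, at chr19:5447698. It may therefore be a start region that could not be counted as such. Fosl1 was nearest to that 1 region of the 14 in its window, and the other regions lie among Drap1, Ccdc85b, Fibp, Ctsw, Mus81 and Cfl1. The window's largest difference, 16.74 points higher in T2, lay near Ctsw. Its region of highest mean percentile, chr19:5424113-5425617, sits at the starts of Drap1 and AI837181. That region stood at 82.6 and 77.1 in T2 and at 81.4 and 80.2 in T1, with overlap.

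Jun, the core partner of FOS proteins, had the strongest start region of the family by −log10 q, at similar positions in both groups. The region spans chr4:95051465-95053463 and stood at 95.2 and 96.2 in T2 and at 97.0 and 95.9 in T1. The groups overlapped, with a difference of −0.81 points. Its −log10 q was 175 and 158 in T2 and 203 and 145 in T1. The other shared regions of the Jun window were weak, at percentiles of at most 42.3 in every library. Of the 6 shared regions, 3 were higher in T2 and 0 in T1, against 26.3% and 26.2% of all, and 3 overlapped. The largest difference among those without overlap was at chr4:95081556-95082678, 29.9 kb upstream, with 32.9 and 31.5 in T2 and 29.8 and 16.0 in T1, or 9.29 points. There T1 replicate 1 lay close to T2, and T1 replicate 2 set most of the difference.

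Junb, whose product often restrains JUN activity and which is needed to limit myeloid progenitor expansion in mice, had the same order as Fos and Fosb. Its start region, chr8:84978383-84978963, stood at 57.5 and 60.9 in T2 and at 66.9 and 71.0 in T1, a difference of −9.74 points with no overlap. By position within each whole list the difference was −3.59 points. The order rested on the ranking by −log10 q. Ranked by fold the region was near the bottom in every library, at 1.08 and 1.59 in T2 and 1.57 and 2.32 in T1, and the groups overlapped. The summits lay 29 bases upstream of the start in both T2 libraries and 70 bases upstream in both T1 libraries. Of 13 shared regions, 0 were higher in T2 and 8 in T1, against 26.3% and 26.2% of all, and 5 overlapped. By fold, 0 were higher in T2 and 5 in T1, against 22.4% and 25.8% of all. Junb was nearest to 3 of its 19 regions, and 6 regions sit at starts of other genes such as Prdx2, Hook2 and Rnaseh2a. Of the 3 shared regions nearest to Junb, 2 were higher in T1. The largest difference of the window among those without overlap, −15.44 points, was at the start of Prdx2, at chr8:84969132-84970000. It stood at 33.7 and 19.2 in T2 and at 41.7 and 42.1 in T1. The region of highest mean percentile, chr8:84965687-84966350, sits at the start of Rnaseh2a and had a positive difference, 4.53 points, with overlap. It stood at 92.4 and 87.9 in T2 and at 88.0 and 83.25 in T1.

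Jund, the most broadly expressed JUN gene, had no peak overlapping its RefSeq start window, and its region lay 1.30 kb further in. That region, chr8:70698365-70699718, stood at 91.8 and 90.9 in T2 and at 96.9 and 94.5 in T1, higher in T1 with a difference of −4.37 points. A site 2.21 kb upstream, chr8:70695309-70695748, went the other way, at 47.0 and 48.9 in T2 and at 15.9 and 40.3 in T1. Its difference was 19.80 points, but the T1 replicates were far apart, with an SD of 17.2 points (n = 2). Of 9 shared regions, 5 were higher in T2 and 3 in T1, against 26.3% and 26.2% of all, and 1 overlapped. Jund was nearest to 2 of the 15 regions. The region of highest mean percentile, chr8:70672881-70673887, is nearest to Lsm4. It stood at 94.8 and 93.8 in T2 and at 97.6 and 97.6 in T1, higher in T1 with a difference of −3.31 points.

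Batf, which shapes T cells, B cells and dendritic cells, had a start region that overlapped between groups. The region chr12:85686380-85687340 stood at 69.4 and 78.9 in T2 and at 75.5 and 71.7 in T1, and the T1 values lay between the T2 values. The summits differed in place, at 171 and 168 bases after the start in T2 and at 24 bases after and 4 bases before it in T1. The strongest Batf region was an intragenic site 18.7 kb after the start, chr12:85704693-85706080, at 96.8 and 96.8 in T2 and at 95.1 and 93.2 in T1, higher in T2 by 2.59 points. A site 16.5 kb upstream stood at 39.8 and 54.8 in T2 and at 31.7 and 31.4 in T1, a difference of 15.74 points. The single Batf region that was higher in T1 had the largest difference of the family. It lay 24.2 kb after the start, just past the gene's end, at chr12:85710721-85711112, and stood at 18.9 and 26.0 in T2 against 56.8 and 42.9 in T1, a difference of −27.43 points. Its −log10 q was 17.98 and 18.4 in T2 and 39.7 and 21.8 in T1. Of 12 shared regions in the window, 5 were higher in T2 and 1 in T1, against 26.3% and 26.2% of all, and 6 overlapped. Batf was nearest to 8 of the 15 regions, and the others lay nearest to Jdp2 or Flvcr2. Of the 6 shared regions nearest to Batf, 4 were higher in T2 and 1 in T1. With 100 kb on either side, 5 of 18 shared regions were higher in T2 and 5 were higher in T1.

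Among the 7 members with a start region in all 4 lists, only Batf3 had that region higher in T2. The region chr1:191097063-191098536 stood at 48.0 and 42.0 in T2 and at 29.4 and 9.61 in T1. Its fold was 10.5 and 8.74 in T2 and 7.65 and 5.27 in T1, and the order was the same ranked by fold, with a difference of 24.25 points. The difference by −log10 q was 25.45 points, and 44 of the 10222 genes with a start region present in all 4 lists (0.43%) had one at least as large in that direction. The difference was 14.54 points without T1 replicate 2, and without T2 replicate 1 the region was split and gave no value.

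The Batf3 region is 2 sites joined by 1 wide peak. T2 replicate 1 had a single peak of 1474 bp with its summit at −935 bases from the start and −log10 q of 37.9. T2 replicate 2 had separate peaks, with the summit of one at −930 bases (−log10 q 27.4) and that of the other at base 0 (12.7). T1 replicate 1 had a peak only at the upstream site, with its summit at −873 bases (19.3), and T1 replicate 2 had a peak only at the start, with its summit at base 14 (8.02). The upstream site was therefore called in both T2 libraries and in 1 of 2 T1 libraries, and the 2 T1 percentiles refer to different sites. The window of sequence printed for Batf3 covers the site at the start and not the upstream one.

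**Figure D2:**
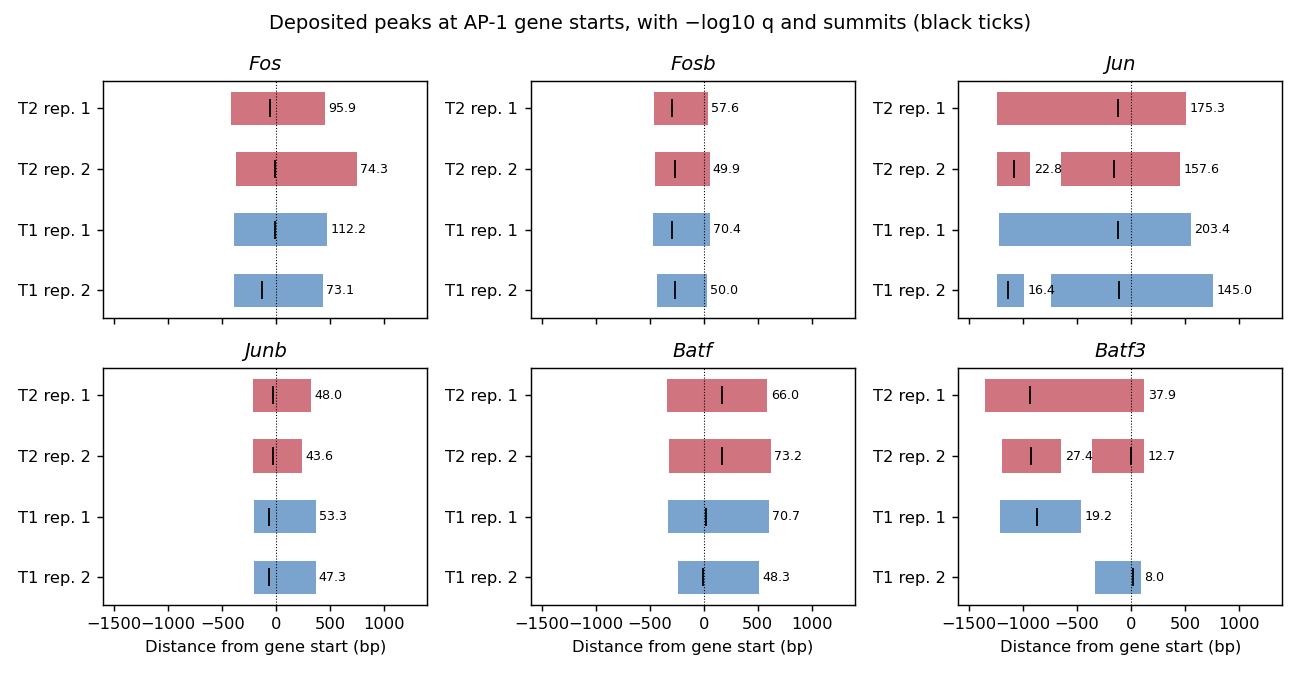
Deposited peaks at the starts of 6 AP-1 genes, by distance from the start in bases on the gene's strand, with T2 libraries (red) above T1 libraries (blue), black ticks at the summits and the −log10 q printed beside each peak. Fos, Fosb and Junb have 1 peak in every library, and at Batf3 the site near −930 is called in both T2 libraries and in T1 replicate 1 only.

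The rest of the Batf3 window was mixed. A site 34.6 kb after the start stood at 63.7 and 62.0 in T2 and at 47.6 and 34.4 in T1, a difference of 21.82 points, and one 13.04 kb after the start stood at 30.6 and 17.9 in T2 and at 5.01 and 13.4 in T1. Both were higher in T2. The strongest region of the window, 27.6 kb after the start at chr1:191125584-191126364, overlapped between groups, at 93.3 and 93.8 in T2 and 93.5 and 94.7 in T1. A region at the start of Tatdn3 had a negative difference, −14.45 points, with overlap, at 58.4 and 42.3 in T2 and 72.3 and 57.3 in T1. Of 8 shared regions, the start region included, 4 were higher in T2 and 0 in T1, against 26.3% and 26.2% of all, and 4 overlapped. With 100 kb on either side, 4 of 13 were higher in T2 and 3 were higher in T1.

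Ordered by the mean percentile of the start or gene-body region, the genes ran Jun, Jund, Fosl2, Fos, Batf, Fosb, Junb, Fosl1 and Batf3 in T2, with means of 95.7, 91.3, 89.3, 80.3, 74.2, 65.4, 59.2, 54.8 and 45.0 by −log10 q. Jund and Fosl2 overlapped there, and no other neighbours in that order did. T1 had the same order except that Fosb (74.0) stood above Batf (73.5), and these 2 overlapped, as did Jun (96.5) and Jund (95.7). The order was another one by fold over local background. Among the 7 start regions ranked by fold, Batf stood highest, at 66.98 and 83.7 in T2 and 80.2 and 74.7 in T1, and Batf3 was next in T2, at 49.1 and 34.5, against 26.4 and 8.76 in T1. Jun stood at 19.1 and 24.2 in T2 and 19.7 and 19.9 in T1, and Fos at 13.4 and 15.0 in T2 and 16.6 and 13.99 in T1. For 7 members a region overlapped the RefSeq start window and was present in all 4 lists, where 58.4% of 17491 genes had such a region. Within these regions the own peak of T1 replicate 1 at Batf3 and of T1 replicate 2 at Fosl2 lay outside the start window. Of these 7, 1 was higher in T2 (Batf3), 3 were higher in T1 (Fos, Fosb, Junb) and 3 overlapped (Fosl2, Jun, Batf). Over the 10222 genes with a start region in all lists, 21.2% were higher in T2 and 30.8% were higher in T1, with a median difference of −0.54 points. At gene starts in these lists, T1 above T2 was thus the commoner order.

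**Figure D3:**
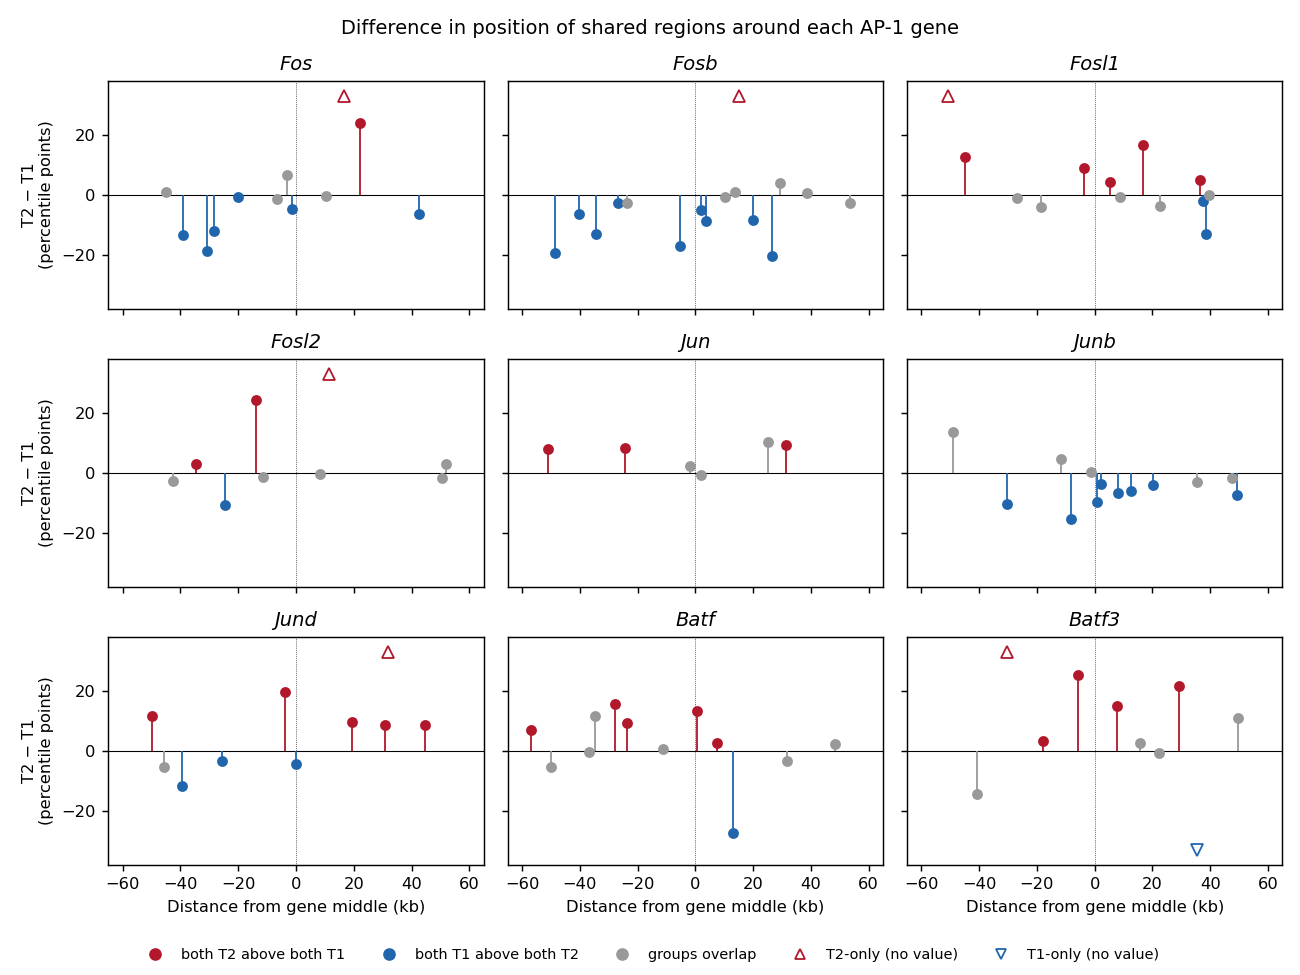
Difference in percentile, T2 minus T1, of every shared region against its distance in kb from the middle of each AP-1 gene along the chromosome, with red points where both T2 libraries stood above both T1 libraries, blue for the opposite and grey for overlap, and triangles for regions called in 1 group only, which have no value. Fosb and Junb have no red points, and Jun and Batf3 have no blue points.

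Over the whole family, the orders at shared regions were near those of the genome. Of the 137 regions 94 were shared by all 4 lists, or 68.6% (60.4 to 75.8), where 56.8% of all regions were. Of these 94, 25 (26.6%, 95% Wilson interval 18.7 to 36.3, for counting error only) were higher in T2, against 26.3% of all 44274 shared regions, and 30 (31.9%, 23.4 to 41.9) were higher in T1, against 26.2%. The median difference was −0.58 points, where it was 0.02 over all shared regions. With means at least 10 points apart, 11 regions (11.7%, against 13.8% of all) were higher in T2 and 13 (13.8%, against 13.4%) were higher in T1.

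The counts pooled by subfamily differed, but they covered members with unlike orders. Over all 44274 shared regions, 26.3% were higher in T2 and 26.2% were higher in T1. The 4 FOS genes had 46 shared regions, 8 of them higher in T2 and 18 higher in T1, with a median of −1.45 points. Fos (1 and 6) and Fosb (0 and 9) leaned to T1, whereas Fosl1 (5 and 2) and Fosl2 (2 and 1) did not. The 3 JUN genes had 28, with 8 higher in T2 and 11 higher in T1 and a median of −1.21 points. Junb gave 0 and 8 of these, Jun 3 and 0, and Jund 5 and 3. The 2 BATF genes had 20, with 9 higher in T2 and 1 higher in T1 and a median of 2.88 points. Ranked by fold the counts were 5 and 15 for FOS, 7 and 8 for JUN and 9 and 1 for BATF genes. By fold, 22.4% of all shared regions were higher in T2 and 25.8% were higher in T1. Counting only regions nearest to the member itself, they were 4 and 11 of 23 for FOS, 3 and 3 of 10 for JUN and 7 and 1 of 11 for BATF genes. These counts depended on the window. With 10 kb on either side, they were 3 and 4 of 15 for FOS, 1 and 5 of 9 for JUN and 4 and 1 of 7 for BATF genes. With 100 kb, they were 15 and 26 of 75 for FOS, 17 and 16 of 52 for JUN and 9 and 8 of 31 for BATF genes. No test of a difference between the subfamilies was made.

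**Figure D4:**
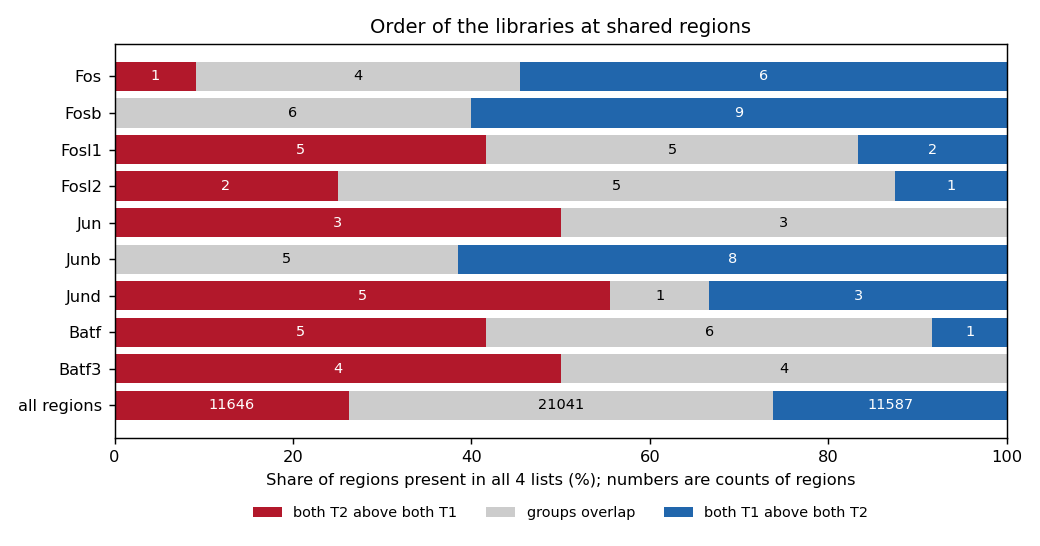
Share of shared regions in which both T2 libraries stood above both T1 libraries (red), the groups overlapped (grey) or both T1 libraries stood above both T2 libraries (blue), for each AP-1 gene and, at the bottom, for all 44274 shared regions, with counts of regions printed in the bars. Fos, Fosb and Junb have 6, 9 and 8 regions higher in T1 and 1, 0 and 0 higher in T2.

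Few AP-1 regions were called in 1 group alone. A region is T2-only where both T2 lists and neither T1 list had a peak in it, and T1-only in the opposite case. There were 6 T2-only regions, 4.38% of 137 (95% Wilson interval 2.02 to 9.23), where 6.88% of all regions were T2-only. There was 1 T1-only region, or 0.73% (0.129 to 4.02), where 2.33% of all regions were T1-only. Both shares were below those of the whole genome, but each interval held the genome share, so no difference from the genome is shown. The other 36 regions had a peak in other combinations of libraries. With the lists shortened to equal length, there were 2 T2-only and 3 T1-only regions, in place of 6 and 1. Leaving out 1 library asks for fewer lists, and gave 12 and 6 without T2 replicate 1, 11 and 3 without T2 replicate 2, 14 and 2 without T1 replicate 1, and 8 and 7 without T1 replicate 2.

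Each of 6 genes had 1 T2-only region in its window. The strongest was that of Fosb, 11.7 kb upstream at chr7:19321538-19321844, with a −log10 q of 22.5 in T2 replicate 1 and 26.7 in T2 replicate 2 and no T1 peak. The region of Fos, 18.4 kb after the start at chr12:85492084-85492432, had 4.33 and 16.5, so it was near the lists' lower limit in T2 replicate 1. That of Fosl2, 22.0 kb after the start and just past the gene's end at chr5:32158198-32158833, was weak, with 3.41 and 6.97. The other 3 lay nearest to other genes. The region in the Jund window (chr8:70731038-70731283, 9.96 and 12.2) was nearest to Pde4c, that in the Batf3 window (chr1:191073022-191073538, 10.2 and 6.95) to Nsl1, and that in the Fosl1 window (chr19:5400577-5401255, 2.18 and 2.70) to Tsga10ip. The single T1-only region, chr1:191138574-191139362, was in the Batf3 window but nearest to Fam71a, with a −log10 q of 3.07 in T1 replicate 1 and 8.85 in T1 replicate 2. Jun, Junb and Batf had neither kind.

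The width of the regions was not used to choose them, whereas their place was. Shared AP-1 regions had a median width of 789 bp, against 725 bp for all shared regions. Of the 137 regions, 27 lay at the start of any gene, and 26 of these 27 were shared by all lists, where 92.4% of all start regions were. Of these 26, 4 (15.4%) were higher in T2 and 9 (34.6%) were higher in T1, against 21.6% and 30.3% of all shared start regions. Away from starts, 21 of 68 shared AP-1 regions (30.9%) were higher in T2 and 21 were higher in T1, against 27.6% and 25% of all shared regions away from starts.

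The genes of the other lists whose starts were most like those of Fos and Jun were found among 39 candidates by the Euclidean distance over the 4 library percentiles. For Fos they were Maff, a small MAF protein, with a distance of 2.21, Il6, a cytokine gene, with 6.67, and Atf3, a stress-induced basic leucine zipper gene, with 6.94. Likeness was chosen on the percentiles themselves, so these genes share the order of Fos by selection and their values are a description. The Maff start stood at 80.4 and 80.4 in T2 and at 86.4 and 84.5 in T1. The Il6 start stood at 76.3 and 77.1 in T2 and at 88.0 and 86.5 in T1. The Atf3 start stood at 78.9 and 81.5 in T2 and at 88.0 and 88.9 in T1. For Jun they were Atf2, a partner of JUN, at 1.17, Dusp5, a phosphatase of ERK, at 2.65, and Srf, the serum response factor that drives Fos, at 2.79. These too were chosen on the percentiles.

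In the 12 other AP-1 and related bZIP genes, 7 had a start shared by all lists. Of these, 5 were higher in T1 (Maff, Atf3, Jdp2, Atf7 and Mafk), 0 were higher in T2, and Atf2 and Mafg overlapped. Over all shared gene starts 21.2% were higher in T2 and 30.8% were higher in T1. Jdp2, a repressor that pairs with JUN and lies next to Batf, stood at 77.8 and 77.4 in T2 and at 78.3 and 86.6 in T1, so its T1 replicate 1 was close to T2. Over their whole windows there was no such lean, with 29 of 92 shared regions (31.5%) higher in T2 and 24 (26.1%) higher in T1, and a median of 0.11 points. There were 3 T2-only and 3 T1-only regions, or 2.27% each, against 6.88% and 2.33% of all. By excess of regions called in 1 group, the rule named Mafa, with 2 T2-only and 0 T1-only regions, Maff, with 0 and 1, and Atf3, with 0 and 1. Of the 132 regions, 14 also lie in AP-1 windows, since Atf3 neighbours Batf3 and Jdp2 neighbours Batf, and the T1-only region of Atf3 is the one in the Batf3 window.

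Among the 17 kinases and factors upstream of AP-1, 14 had a shared start, 1 of them higher in T2 (Map2k3) and 4 higher in T1 (Map2k2, Map2k7, Mapk7 and Map3k1). Map3k1, which codes for MEKK1 upstream of JNK, had the widest gap, at 36.0 and 37.1 in T2 and at 57.0 and 55.6 in T1, and was singled out after its values were seen. Of 121 shared regions, 22 (18.2%) were higher in T2 and 34 (28.1%) were higher in T1, against 26.3% and 26.2% of all. There were 10 T2-only (5.26% of 190) and 6 T1-only (3.16%) regions, against 6.88% and 2.33% of all. Map2k2 and Map2k7, kinases of the ERK and JNK routes, had 2 T2-only and 0 T1-only regions each. Srf had 0 T2-only and 2 T1-only regions. The strongest group-only region of Map2k2 had −log10 q of 33 and 32.7 in T2, and that of Srf had 16.1 and 19.7 in T1.

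Of the 8 phosphatases that act on MAP kinases, 7 had a shared start, with 1 higher in T2 (Dusp8) and 1 higher in T1 (Dusp2). Of their 54 shared regions 13 (24.1%) were higher in T2 and 13 were higher in T1, against 26.3% and 26.2% of all. Of 91 regions 6 (6.59%) were T2-only and 5 (5.49%) were T1-only, against 6.88% and 2.33% of all. Dusp2 had 0 T2-only and 3 T1-only regions, Dusp16 had 3 and 1, and Dusp10 had 2 and 0. Among the 8 partners of BATF and JUN, 6 had a shared start, 0 higher in T2 and 2 higher in T1, namely Irf8 and Irf4. The Irf8 start stood at 65.7 and 60.4 in T2 and at 69.2 and 74.0 in T1, and the Irf4 start at 60.9 and 68.2 in T2 and at 76.5 and 72.5 in T1. This share of starts higher in T1 is near the 30.8% of all shared gene starts. The partner windows held 12 T2-only (7.19% of 167) and 4 T1-only (2.40%) regions, with 3 and 1 at Irf8, 2 and 0 at Nfatc2, and 3 and 2 at Smad3. Of 104 shared regions, 23 (22.1%) were higher in T2 and 27 (26.0%) were higher in T1, against 26.3% and 26.2% of all.

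The 10 known AP-1 target genes had 103 regions, 1 of them T2-only (0.971%) and 6 T1-only (5.83%), where the shares over all regions were 6.88% and 2.33%. Spp1, the gene of osteopontin, had 0 T2-only and 2 T1-only regions, Il1b, the interleukin-1β gene, had 0 and 1, and Cd44, an adhesion receptor gene, had 0 and 1. The Il1b region was the strongest of these, with a −log10 q of 25.7 in T1 replicate 1 and 17.6 in T1 replicate 2. Of 59 shared regions, 9 (15.3%) were higher in T2 and 14 (23.7%) were higher in T1, against 26.3% and 26.2% of all. Of 5 shared starts, 2 were higher in T2 (Spp1 and Timp1) and 1 was higher in T1 (Il6).

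Markers of the sorted cells and of other cells were read at the regions overlapping gene starts. Of 7 progenitor markers 6 were in the start table, and 6 and 6 had a peak in T2 and 5 and 5 in T1. Kit, Cd34, Flt3, Cd48 and Cebpa had a peak in every list, whereas Mpo, the myeloperoxidase gene of granulocyte and monocyte progenitors, had one in both T2 lists and in neither T1 list. Of 21 markers of other cells 12 were in the table, and 4 and 5 had a peak in T2 and 4 and 5 in T1. Of these 12, 6 had a peak in 0 lists, namely Cd3e, Cd8a, Hbb-bt, Ly6g, Alb and Apoa1, and the others had a peak in some lists. Col1a2, a stromal marker, had one in every list. The B cell genes Cd79a and Pax5 had one in both T2 lists and in T1 replicate 2, and Tek, an endothelial gene, in both T2 lists and in T1 replicate 1. The neutrophil gene S100a8 had a peak in both T1 lists and in neither T2 list, and Mmp8 had one in both T1 lists and in T2 replicate 2. At Cd79a, Pax5, Tek and Mmp8 a peak was missing from a single list. The differences at Mpo and S100a8 run along the same groups but in opposite directions. That at S100a8 has the direction of the order at Fos, Fosb and Junb, higher in T1, and that at Mpo has the reverse. The part of the marker differences in that order was not tested.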

How the data were processed

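The data are 4 ATAC-seq peak lists in the narrowPeak layout, 1 for each library. The submitters' processing notes name Bowtie2, SAMtools, MACS2 and the build mm10. The labels and files used here state no versions, settings, read filters or transposase shift. Each deposited list carries 1 library prefix in its peak names (MG in T2, WG in T1), so peak calling by the authors was per library. The deposited fold is a ratio of the summit over local background. The deposited −log10 p and −log10 q give its significance, with no −log10 q under 2. The deposited score, a whole number, was not used. The deposited summit offset gave summit positions. No values are read counts, which left no basis for a count model, and the only intervals are those on region counts.

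Peaks outside the autosomes, X and Y were left out, which kept 66764 and 62704 in T2 and 58454 and 54045 in T1. They were joined and ranked as the text describes, with Python 3.11.15, pandas 2.3.3 and scipy 1.17.1. Gene spans and starts came from RefSeq tables on GRCm38.p6. A gene start has a peak where a region overlaps its window of 250 bases before to 50 after. The procedure was tested on simulated lists.

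The members, the 5 other lists (55 genes) and the motifs were chosen with earlier results of these data known. Named for each member were the start region, the region of highest mean percentile, all group-only regions and the largest difference without overlap. Other regions are described from their window, and from each other list 3 genes were taken by excess of group-only regions. Alternatives were −log10 q of at least 5 or 10, lists cut to 54045 peaks, other joining, presence and windows, ranking by fold or within each whole list, pairing by replicate number and leaving out each library. A difference of at least 10 points was added after the data were seen. Replicate numbers are shared between groups, but the labels tie them to no animal, batch or day.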

Additional observations from a re-analysis of the deposited data

How the results depend on the processing

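The difference in AP-1 regions with a peak (7.5, T2 minus T1) was reversed, at −1.0, with lists of equal length. With the replicate block, that is, with libraries paired by number, it was 7.5 with an exact p of 0.5, the smallest that 2 pairs allow, and the labels do not show that the numbers pair the libraries. Leaving out 1 library gave 2 to 14. Against 6 as reported, T2-only regions numbered 2 with lists of equal length, 1 with windows of 10 kb and 3 where the AP-1 gene is nearest, and 8 to 14 without 1 library. Against 1, T1-only regions numbered 0 for peaks with −log10 q from 5 upwards, with windows of 10 kb and where the AP-1 gene is nearest, 2 with windows of 100 kb, 3 with lists of equal length and 2 to 7 without 1 library. Regions higher in T2 and in T1 (25 and 30) numbered 8 and 10 with 10 kb, 41 and 50 with 100 kb, 14 and 15 where the AP-1 gene is nearest, and 11 and 13 with means at least 10 points apart. Without 1 library they numbered 33 to 39 and 39 to 45, where 37.1% to 38.5% of all shared regions have each order. Fewer libraries and other windows change these counts by construction. Of the gene-start differences, 10 of 41 moved by more than the spread between replicates, among them Fos and Junb ranked by fold. Batf3 gave no value without T2 replicate 1, since its region was then absent from a list. Depth is unknown, so a missing peak is a peak not called, not closed chromatin.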
